A study of Fukomys damarensis and Heterocephalus glaber and Cavia porcellus with 28 samples.

Results

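The genes described here are those of the hypoxia-inducible factor (HIF) pathway of oxygen sensing, with its target Vegfa and the globins Mb and Cygb, in the heart and liver of African mole-rats and their relatives. They were taken by symbol, matched through mouse Ensembl identifiers, from tables with 13928 gene rows per tissue. Of the 10 genes asked for, 9 had a row: Hif1a, Epas1, Hif3a, Egln2, Egln3, Vhl, Vegfa, Mb and Cygb. Egln1 is not analysed here. All 9 passed the filter on low values in heart, and 8 did in liver, where Hif3a fell under it.

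Total RNA depleted of ribosomal RNA was sequenced from the heart and liver of 4 rodent species to compare the evolution of gene expression in mole-rats. Heart came from 3 naked mole-rats (Heterocephalus glaber), 5 Damaraland mole-rats (Fukomys damarensis), 3 guinea pigs (Cavia porcellus) and 3 mice (Mus musculus), and liver from 4, 5, 3 and 2 animals of the same species. Of 18 animals, 10 gave both tissues. No treatment is given in the labels; the animals were 13 to 17 months old (naked mole-rat), 36 to 48 months (Damaraland mole-rat), 2.3 months (guinea pig) and 2 months (mouse). All were male but 1 female Damaraland mole-rat, the source of liver replicate 4. Species and age cannot be told apart in this design, and 1 Damaraland animal is labelled 48 months for its heart and 36 months for its liver.

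In normal oxygen, prolyl hydroxylases of the Egln family mark the HIF alpha proteins, and the Vhl protein then hands them to the proteasome. When oxygen falls the alpha proteins persist, pair with Arnt and switch on genes of glycolysis, blood vessel growth and red cell production. Myoglobin stores and carries oxygen in heart and skeletal muscle, and cytoglobin is a related globin of fibroblasts and, in liver, of stellate cells. Because the HIF alpha proteins are controlled mainly through their breakdown, RNA levels do not measure the activity of the pathway.

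Values are on a log2-like scale made separately for each tissue, so levels were compared between species within a tissue and not between tissues or between genes. A gene without reads (0) takes the value 5.36 in the heart table and 4.29 in the liver table, and the scale compresses differences among weakly expressed genes: a 2-fold change from 10 scaled reads moved the value by only 0.28 in heart and 0.39 in liver. Scaled reads are reads divided by the size factor of the library. A difference was called at an adjusted p under 0.05 (limma, Benjamini-Hochberg over all genes tested in the tissue) and a size of at least 1. Errors of means are SD over animals, errors of differences are limma's SE, and n is as given above. How genes were assigned across species is not given in the sources used here and no correction for gene length was found in the values, so a difference between species and a difference in gene model cannot be told apart. In bulk tissue, fewer cells of a type and less RNA per cell cannot be told apart either.

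Depth ran from 4089633 to 26985779 reads per library in heart and from 11220505 to 21467939 in liver, with naked mole-rat heart replicate 3 the shallowest. The labelled tissues carried their markers: summed reads of 11 cardiomyocyte genes were at least 867906 scaled reads in each heart library and at most 4808 in each liver library, and 7 hepatocyte genes summed to at least 1049390 in each liver library. Hepatocyte genes also summed to 12022 to 33356 scaled reads in naked mole-rat hearts, against 384 to 7243 in the hearts of the other species.

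Among the 9 members, a shift shared by both mole-rats was called for 1 gene in 1 tissue, Epas1 in liver. The heart gave no call among the 9 members in the contrast of the mole-rat mean with the outgroup mean. In that contrast 23.4% of all heart genes were called. Of the 9 members, 4 had an adjusted p under 0.05 (limma) but a difference under 1. Limma's voom on the recovered reads called 2, Hif3a and Vhl. Liver gave 1 of 8 in that contrast, where 28.1% of all genes were called, and 7 of 8 had an adjusted p under 0.05. The share of all genes that reached this adjusted p is not given here. Over the 6 pairwise contrasts of species, 13 of 54 tests of members were called in heart (24.1%, against 32.9% of all genes) and 22 of 48 in liver (45.8%, against 37.6%). The median size of a pairwise difference was 0.67 for members and 0.67 for all genes in heart, and 0.89 and 0.74 in liver. These contrasts share species, so the calls are not independent. The share of members called lay under that of all genes in heart and over it in liver. These shares rest on 9 and 8 genes, each counted in 6 contrasts, and their distance from the share of all genes was not tested. The pattern over species differed among the genes, as the grid of pairwise differences shows, though guinea pig alone was low for both Epas1 and Egln2 in heart.

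**Figure D1:**
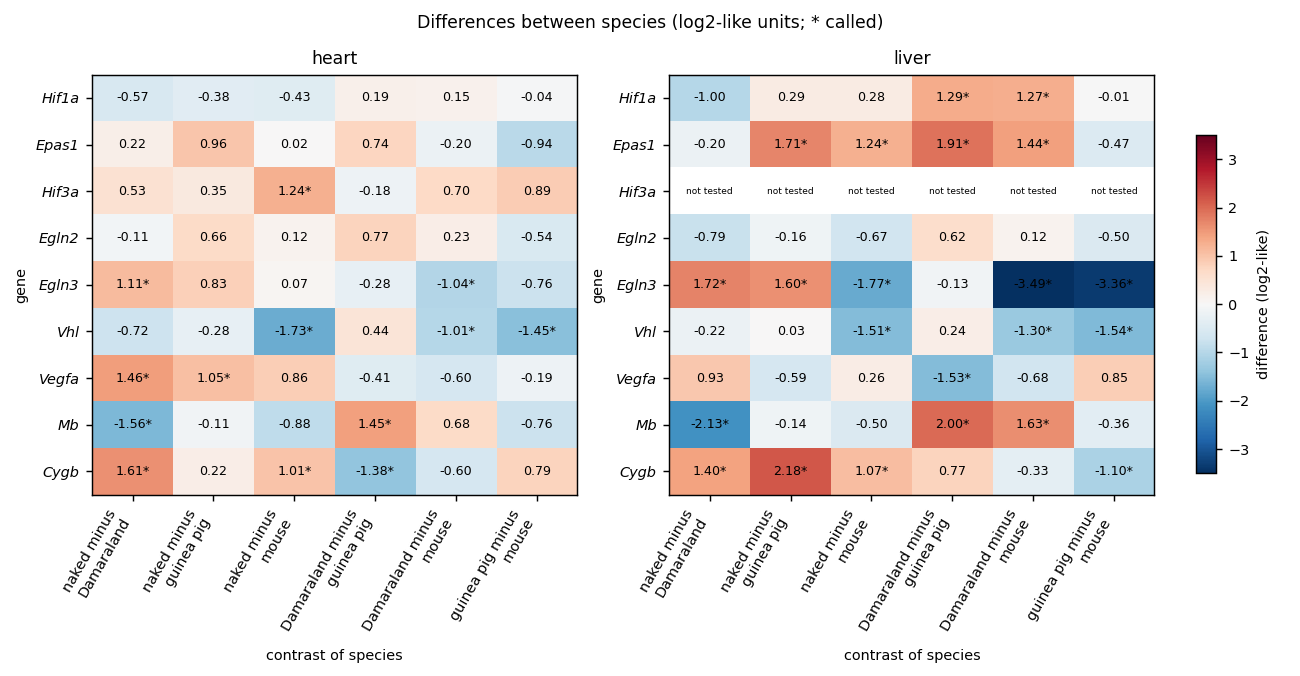
Differences between species for each gene (rows) and pair of species (columns) in heart (left) and liver (right), in log2-like units, first species minus second; an asterisk marks a called difference. Epas1 in liver is the only row with calls in all 4 mole-rat to outgroup contrasts, and Egln3 in liver holds the largest differences, -3.49 and -3.36 against mouse.

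Epas1 (ENSMUSG00000024140), which encodes HIF-2 alpha, the alpha subunit prominent in endothelial cells and in hepatic control of erythropoietin, was higher in the livers of both mole-rats than in those of both outgroups. Its liver values were 12.99, 13.24, 13.08 and 12.97 in naked mole-rats and 13.25, 13.25, 12.94, 13.38 and 13.52 in Damaraland mole-rats. They were 11.57, 10.97 and 11.54 in guinea pigs and 11.88 and 11.78 in mice. Each of the 9 mole-rat libraries lay above each of the 5 outgroup libraries, an arrangement found for 16.1% of all liver genes in either direction. The mean of the mole-rats exceeded that of the outgroups by 1.58 ± 0.13 (limma, adjusted p = 1.81e-08). The naked mole-rat exceeded guinea pig by 1.71 and mouse by 1.24, and the Damaraland mole-rat exceeded them by 1.91 and 1.44, all called; calls in all 4 of these contrasts with one sign were made for 6.29% of liver genes. Mean scaled reads were 8569 (naked mole-rat), 9925 (Damaraland mole-rat), 2634 (guinea pig) and 3600 (mouse). The mole-rats differed by 0.20 ± 0.16 (adjusted p = 0.272), with overlapping libraries.

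Endothelial markers did not follow the same order. The summed reads of 11 endothelial genes in liver ran from 6366 to 8884 scaled reads in naked mole-rats, 6130 to 7019 in Damaraland mole-rats, 9032 to 11103 in guinea pigs and 3769 to 4440 in mice. Epas1 amounted to 108% to 135% of that sum in naked mole-rats, 122% to 172% in Damaraland mole-rats, 21.8% to 27.2% in guinea pigs and 78.0% to 99.1% in mice. Relative to these markers Epas1 was thus lowest in guinea pig, and no outgroup library reached the lowest mole-rat library. The part of endothelial cells in these values was not tested.

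In heart Epas1 had another order, with guinea pig alone low. The values were 12.99, 13.01 and 13.68 in naked mole-rats and 13.43, 12.95, 12.74, 12.87 and 13.05 in Damaraland mole-rats. Guinea pigs gave 12.30, 12.32 and 12.17 and mice 13.14, 13.12 and 13.35. All 3 guinea pig libraries lay below every other heart library, while the other species overlapped. Guinea pig differed from naked mole-rat by 0.96 ± 0.21 (adjusted p = 0.000882), from mouse by 0.94 ± 0.21 (adjusted p = 0.00111) and from Damaraland mole-rat by 0.74 ± 0.19 (adjusted p = 0.00274), each under the size threshold and so not called. The naked mole-rat mean exceeded the mouse mean by 0.02 ± 0.21 (adjusted p = 0.933).

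**Figure D2:**
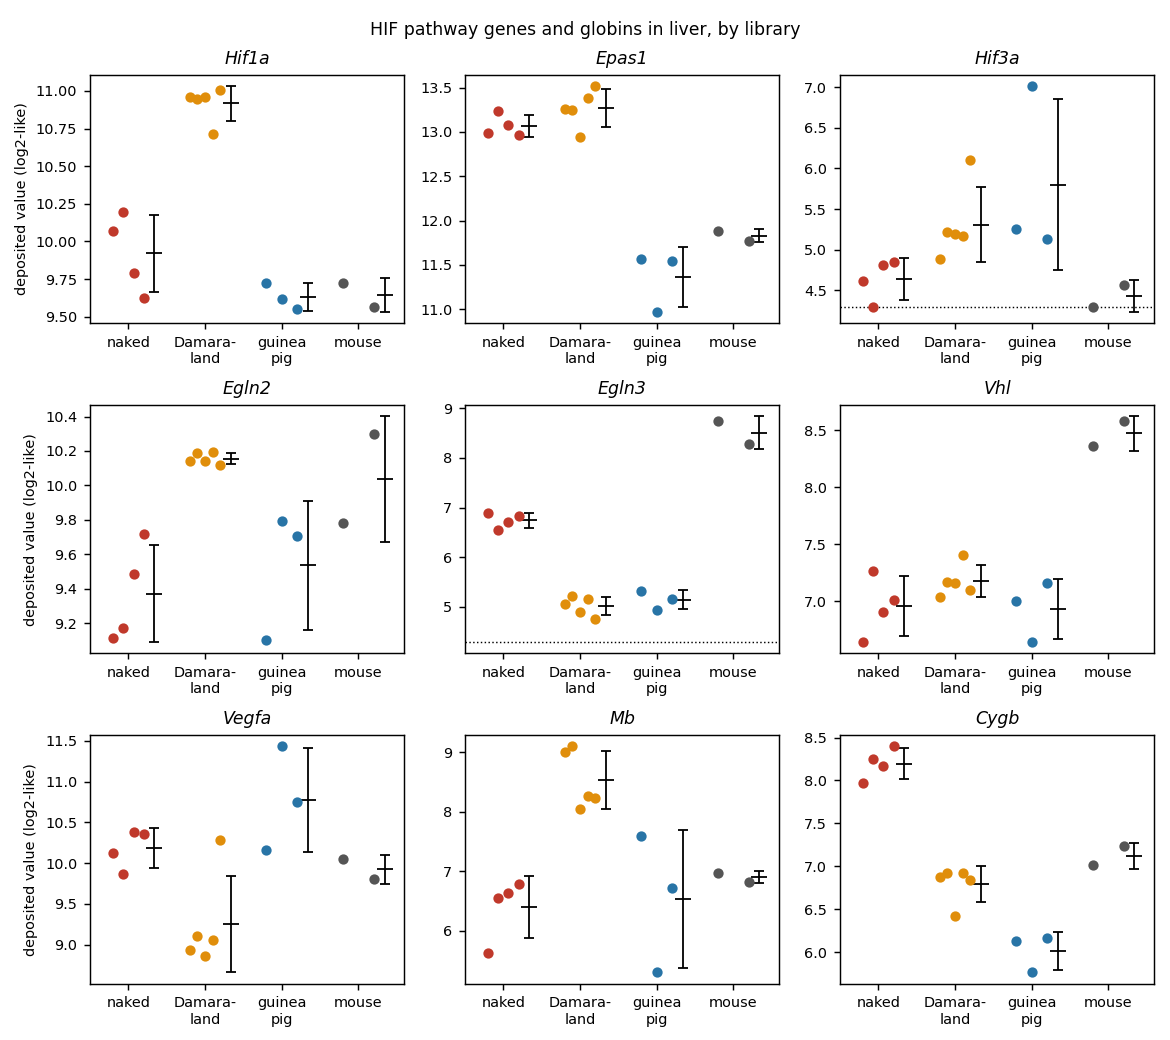
Liver values of the 9 genes by library (points) with the species mean and SD (bars), in the deposited log2-like units; the dotted line, where it lies within the panel, is the value of a gene with 0 reads. For Epas1 the mole-rat points lie between 12.94 and 13.52 and the outgroup points between 10.97 and 11.88; Mb is highest in Damaraland mole-rats, Cygb in naked mole-rats, and Egln3 and Vhl in mice.

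Hif1a (ENSMUSG00000021109), the alpha subunit found in nearly all cells, was higher in Damaraland livers than in those of the outgroups. Damaraland livers gave 10.96, 10.95, 10.96, 10.71 and 11.01, and naked mole-rat livers 10.07, 10.19, 9.79 and 9.63. Guinea pigs gave 9.73, 9.62 and 9.55 and mice 9.72 and 9.56. All 5 Damaraland libraries lay above every other library, and the naked mole-rat libraries overlapped those of both outgroups. The Damaraland mean exceeded guinea pig by 1.29 ± 0.15 (adjusted p = 6.99e-07) and mouse by 1.27 ± 0.17 (adjusted p = 4.43e-06). Against the naked mole-rat it was higher by 0.997 ± 0.14 (adjusted p = 4.75e-06), just under the size threshold. Damaraland replicate 4, at 10.71 the lowest of its group, is the library of the only female.

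No pair of species was called for Hif1a in heart. The naked mole-rat values were 9.69, 9.90 and 10.73, so that the 3 animals spanned 1.03, and the highest came from the shallow replicate 3. Damaraland hearts gave 11.08, 10.77, 10.66, 10.72 and 10.16, guinea pig hearts 10.53, 10.65 and 10.29, and mouse hearts 10.47, 10.48 and 10.65. Every pair of neighbouring species in the order of means overlapped; the lowest mean, that of the naked mole-rat (10.11 ± 0.55), was 0.57 ± 0.22 under the highest, that of the Damaraland mole-rat (10.68 ± 0.33; adjusted p = 0.0341).

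Hif3a (ENSMUSG00000004328) encodes an alpha subunit with splice forms that can oppose the others. In heart the naked mole-rat values of 7.23, 7.32 and 7.29 lay close together. Damaraland hearts gave 6.43, 6.58, 6.12, 8.06 and 6.52, and replicate 4 at 8.06 stood apart from the rest. Guinea pig hearts gave 7.20, 6.72 and 6.86 and mouse hearts 6.11, 5.92 and 6.08, the latter from 8 to 17 reads per library. Every naked mole-rat library lay above every guinea pig and mouse library. The naked mole-rat mean exceeded that of mouse by 1.24 ± 0.34 (adjusted p = 0.00415), the only pair called on the deposited values; in mean scaled reads these were 83.8 and 9.31. The same pair differed by 3.15 in log2 units in the voom fit, since the deposited scale compresses such low counts. That fit also called the naked over the Damaraland mole-rat, by 1.38 (adjusted p = 0.0353), and guinea pig over mouse, by 2.50 (adjusted p = 0.0139).

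Liver held few Hif3a reads, and the gene was not tested there. Read numbers ran from 0 to 4 per library in naked mole-rats, 3 to 33 in Damaraland mole-rats, 10 to 113 in guinea pigs and 0 to 1 in mice. Guinea pig replicate 2, at 7.02, and Damaraland replicate 5, at 6.10, were the highest of their groups.

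Among the hydroxylases, Egln3 (ENSMUSG00000035105), which encodes PHD3 and is itself a HIF target, showed the widest range in liver. Mouse livers gave 8.74 and 8.27, and naked mole-rat livers 6.89, 6.54, 6.70 and 6.84. Damaraland livers gave 5.05, 5.21, 4.90, 5.16 and 4.76 and guinea pig livers 5.32, 4.95 and 5.17. The libraries formed 3 levels that did not overlap: mouse above naked mole-rat, and naked mole-rat above both Damaraland mole-rat and guinea pig, which overlapped. Mouse exceeded naked mole-rat by 1.77 ± 0.20 (adjusted p = 8.74e-07), guinea pig by 3.36 ± 0.22 (adjusted p = 8.16e-10) and Damaraland mole-rat by 3.49 ± 0.20 (adjusted p = 1.25e-10). The naked mole-rat exceeded the Damaraland mole-rat by 1.72 ± 0.16 (adjusted p = 4.16e-08) and guinea pig by 1.60 ± 0.18 (adjusted p = 5.91e-07). Mean scaled reads were 330.8 in mouse, 71.9 in naked mole-rat, 7.36 in guinea pig and 5.38 in Damaraland mole-rat, the last from 2 to 9 reads per library.

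In heart Egln3 differed less, and the order changed. Naked mole-rat hearts gave 10.69, 11.11 and 10.30 and mouse hearts 10.70, 10.62 and 10.55. Damaraland hearts gave 10.20, 8.89, 10.35, 8.998 and 9.49 and guinea pig hearts 9.84, 10.06 and 9.69. The Damaraland libraries were scattered over 1.46 and overlapped those of naked mole-rat and guinea pig, while every mouse library lay above every Damaraland and guinea pig library. The naked mole-rat exceeded the Damaraland mole-rat by 1.11 ± 0.29 (adjusted p = 0.00331), and mouse exceeded it by 1.04 ± 0.29 (adjusted p = 0.00485). Both calls lay close to the size threshold and dropped under it without any 1 of several libraries, with an adjusted p still under 0.05 (limma). The former fell to 0.91 without naked mole-rat replicate 2, 0.94 without Damaraland replicate 2 and 0.96 without Damaraland replicate 4. The latter fell in size to -0.86 and -0.89 without Damaraland replicates 2 and 4, and to -0.999 without mouse replicate 1. It was also under the threshold with median centring of the libraries (-0.97), quantile normalisation (-0.96) and array weights (-0.995).

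Egln2 (ENSMUSG00000058709), which encodes PHD1, gave no call in either tissue. Guinea pig hearts held the lowest values, 8.85, 9.20 and 9.33, below all other heart libraries, which ran from 9.49 to 10.12. The guinea pig mean lay 0.77 ± 0.17 under that of the Damaraland mole-rat (adjusted p = 0.000724) and 0.66 ± 0.19 under that of the naked mole-rat (adjusted p = 0.00547), short of the size threshold. In liver the naked mole-rat gave 9.11, 9.17, 9.48 and 9.72 and the Damaraland mole-rat 10.14, 10.19, 10.14, 10.19 and 10.12, which did not overlap and differed by 0.79 ± 0.17 (adjusted p = 0.000539). Guinea pig livers gave 9.10, 9.80 and 9.70 and mouse livers 9.78 and 10.30. In liver no difference of the mole-rat mean from the outgroup mean was called (limma, adjusted p = 0.895).

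Vhl (ENSMUSG00000033933), the substrate-recognition subunit of the ubiquitin ligase that acts on hydroxylated HIF alpha, was highest in mouse in both tissues. In heart mice gave 8.53, 8.39 and 8.05 and Damaraland mole-rats 7.30, 7.46, 7.24, 7.39 and 7.17. Naked mole-rats gave 6.52, 6.72 and 6.55 and guinea pigs 7.13, 6.77 and 6.72. No mouse library overlapped another species, and mouse exceeded naked mole-rat by 1.73 ± 0.17 (adjusted p = 1.35e-07), guinea pig by 1.45 ± 0.17 (adjusted p = 1.30e-06) and Damaraland mole-rat by 1.01 ± 0.15 (adjusted p = 1.53e-05). The last was close to the size threshold and dropped under it, to between -0.91 and -0.99, without any 1 of Damaraland replicates 3 and 5 and mouse replicates 1 and 2, and to -0.95 with median centring and -0.98 with quantile normalisation. The naked mole-rat libraries lay below all others, from 8 to 60 reads each.

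The same order at the top was seen in liver. Mice gave 8.36 and 8.58, naked mole-rats 6.64, 7.27, 6.90 and 7.01, Damaraland mole-rats 7.03, 7.17, 7.16, 7.40 and 7.10, and guinea pigs 6.997, 6.64 and 7.16. The 3 species other than mouse overlapped one another, and no difference between them exceeded 0.24. Mouse exceeded them by 1.51 ± 0.20, 1.30 ± 0.19 and 1.54 ± 0.21 in that order (adjusted p = 4.64e-06, 1.80e-05 and 8.95e-06). A gene higher in mouse than in each other species was found for 6.6% of heart genes and 6.33% of liver genes. Identifiers of the tables are mouse identifiers, and what a mouse reference adds to a gain in mouse was not tested.

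Vegfa (ENSMUSG00000023951), the secreted growth factor of blood vessels and a standard HIF target, had its highest heart values in naked mole-rats. These gave 11.79, 11.69 and 12.07. Damaraland hearts gave 10.48, 10.01, 10.67, 11.20 and 9.57, guinea pig hearts 10.64, 10.63 and 11.12, and mouse hearts 10.89, 10.86 and 11.20. Each naked mole-rat library lay above all 11 others, and the 3 other species overlapped. The naked mole-rat exceeded the Damaraland mole-rat by 1.46 ± 0.27 (adjusted p = 0.000197) and guinea pig by 1.05 ± 0.30 (adjusted p = 0.00688). Against mouse it was 0.86 ± 0.30 (adjusted p = 0.0202), which was not called. With quantile normalisation the difference from mouse was 1.11 and was called (limma, adjusted p = 0.00495). The guinea pig call fell to 0.94 without naked mole-rat replicate 3 and to 0.97 without guinea pig replicate 1 or 2, and to 0.96 with array weights. Mean scaled reads were 3628 (naked mole-rat), 1359 (Damaraland mole-rat), 1724 (guinea pig) and 1959 (mouse).

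In liver the naked mole-rat was not set apart for Vegfa. It gave 10.13, 9.86, 10.38 and 10.36, against 10.16, 11.43 and 10.74 in guinea pigs and 10.05 and 9.80 in mice. Damaraland livers gave 8.94, 9.10, 8.86, 9.05 and 10.29. The first 4 Damaraland libraries lay below every other liver library, and replicate 5 lay among those of the other species. The Damaraland mean was 1.53 ± 0.30 under that of guinea pig (adjusted p = 0.000241), which was called. Its difference from the naked mole-rat, 0.93 ± 0.27 (adjusted p = 0.00626), was not called with all libraries and was called at 1.19 without Damaraland replicate 5.

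**Figure D3:**
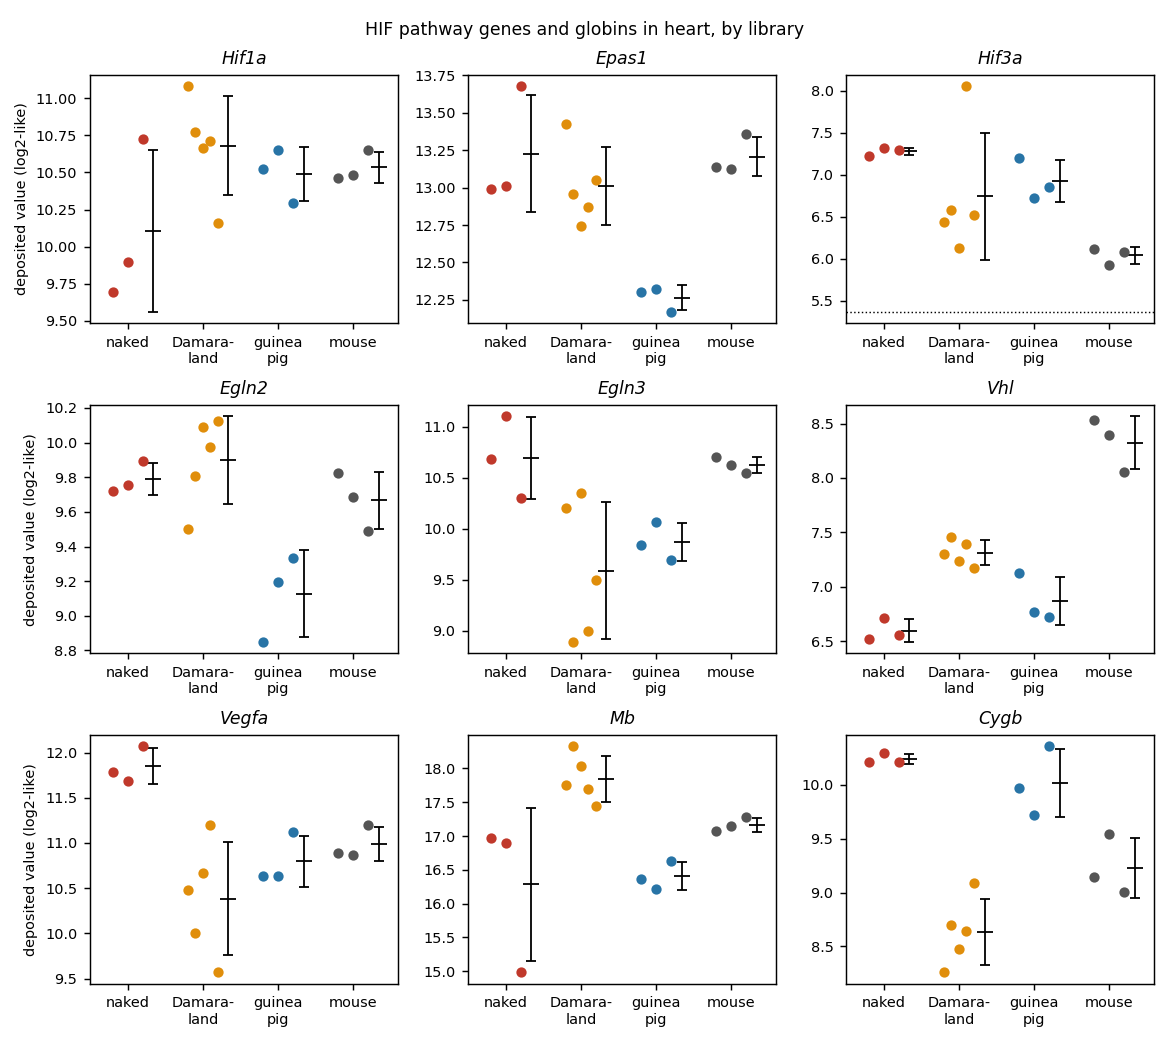
Heart values of the 9 genes by library (points) with the species mean and SD (bars), in the deposited log2-like units. Naked mole-rat points are highest for Vegfa, between 11.69 and 12.07, guinea pig points lowest for Epas1, mouse points highest for Vhl, and 1 naked mole-rat point for Mb, 14.98, lies below all others.

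Myoglobin (Mb, ENSMUSG00000018893), the oxygen-binding globin of heart muscle, had its highest values in Damaraland hearts. These gave 17.75, 18.33, 18.03, 17.69 and 17.44, above every other heart library. Mouse hearts gave 17.08, 17.14 and 17.28 and guinea pig hearts 16.36, 16.22 and 16.63. Naked mole-rat hearts gave 16.98, 16.90 and 14.98, the last from the shallow replicate 3. The Damaraland mean exceeded guinea pig by 1.45 ± 0.36 (adjusted p = 0.00214) and was 0.68 ± 0.36 over mouse (adjusted p = 0.101), which was not called. With quantile normalisation the difference from mouse was 1.63 and was called (limma, adjusted p = 0.000395). The Damaraland mean exceeded the naked mole-rat by 1.56 ± 0.36 (adjusted p = 0.00117). Without naked mole-rat replicate 3 the difference was -0.91, naked minus Damaraland (adjusted p = 0.00445), and no longer called. In mean scaled reads the levels were 241201 in Damaraland mole-rat, 147205 in mouse, 94624 in naked mole-rat and 87152 in guinea pig.

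Cardiomyocyte markers moved along with Mb in part. Their sum ran from 867906 to 1273110 scaled reads in naked mole-rat hearts, 1844110 to 2481510 in Damaraland hearts, 1110140 to 1300440 in guinea pig hearts and 2206470 to 2616300 in mouse hearts. Set against that sum in the same library, Mb had a median of 10.8% in Damaraland hearts (8.11% to 14.7%) and 10.1% in naked mole-rat hearts (3.70% to 14.1%). The medians were 7.56% in guinea pig (5.95% to 7.78%) and 6.08% in mouse (5.99% to 6.26%). Ttn, the titin gene, took 43.4% to 48.3% of the mouse sum and at most 11.7% of that of another species. Without Ttn, a sum chosen after its values were seen, Mb came to 8.43% to 15.4% in Damaraland hearts and 11.0% to 11.7% in mouse hearts, which overlap. Guinea pig hearts, at 6.42% to 8.35%, stayed under each Damaraland heart, and naked mole-rat hearts ranged from 3.80% to 14.5%. With or without Ttn, naked mole-rat replicate 3 was the lowest of all 14. Skeletal muscle markers summed to 20173 scaled reads in Damaraland heart replicate 2, the library with the highest Mb, and to 2103 to 4998 in the other Damaraland hearts. They summed to 8068 to 10436 in naked mole-rat, 3576 to 9801 in mouse and 1498 to 3242 in guinea pig hearts. The part of any of these markers in the Mb values was not tested.

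Liver holds little myoglobin, and there too the Damaraland mole-rat was highest. Its livers gave 9.01, 9.10, 8.04, 8.26 and 8.23. Naked mole-rat livers gave 5.62, 6.54, 6.64 and 6.79, guinea pig livers 7.59, 5.30 and 6.72, and mouse livers 6.97 and 6.82. No Damaraland library overlapped another species, and its mean exceeded naked mole-rat by 2.13 ± 0.36 (adjusted p = 5.98e-05), guinea pig by 2.00 ± 0.40 (adjusted p = 0.000280) and mouse by 1.63 ± 0.45 (adjusted p = 0.00467). A gene higher in the Damaraland mole-rat than in each other species was found for 5.51% of liver genes.

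Transcripts of heart muscle were present beside Mb in each liver library. The 11 cardiomyocyte genes summed to 2440 to 4808 scaled reads in Damaraland livers, 1268 to 2168 in naked mole-rat livers, 769 to 4250 in guinea pig livers and 2029 to 3601 in mouse livers; Myh6, the cardiac alpha myosin heavy chain, averaged 1419, 632, 939 and 717. Within guinea pig the library lowest in Mb (9.91 scaled reads) was also lowest in these markers, and the highest (155) was highest in both. Mb reached 8.76% to 10.6% of the marker sum in Damaraland livers, close to its share in the hearts of that species. It reached 1.41% to 4.10% in naked mole-rat, 1.29% to 3.65% in guinea pig and 2.49% to 3.82% in mouse livers, under the shares in nearly all hearts of those species, with naked mole-rat heart replicate 3 (3.70%) as the exception. Without Ttn, 46.6% to 53.5% of the mouse liver sum, the range was 5.35% to 7.16% in mouse and 9.55% to 11.6% in Damaraland livers. Skeletal muscle markers summed to 185 to 276 scaled reads in Damaraland livers and did not overlap the 31 to 122 of naked mole-rat, 12 to 133 of guinea pig and 37 to 127 of mouse livers. The part of heart or skeletal muscle transcripts in the liver values of Mb was not tested.

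**Figure D4:**
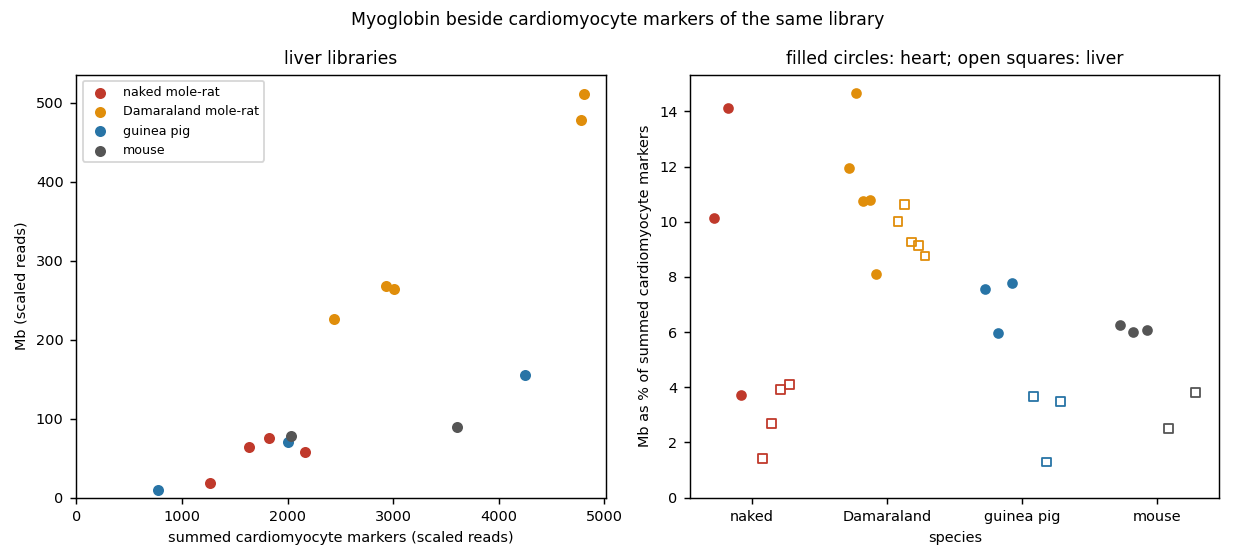
Left, scaled reads of Mb against the summed scaled reads of 11 cardiomyocyte markers in each liver library, by species. Right, Mb as a percentage of that sum, Ttn included, in each heart library (filled circles) and liver library (open squares); the Damaraland values lie between 8.11% and 14.7% in both tissues, and those of other species' livers lie at 4.10% or under.

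Cytoglobin (Cygb, ENSMUSG00000020810) was higher in naked mole-rat livers than in those of each other species. It gave 7.97, 8.25, 8.17 and 8.40 there and 6.87, 6.92, 6.42, 6.92 and 6.84 in Damaraland mole-rats. Guinea pigs gave 6.13, 5.77 and 6.16 and mice 7.02 and 7.23. The species did not overlap, in the order naked mole-rat, mouse, Damaraland mole-rat and guinea pig. The naked mole-rat exceeded mouse by 1.07 ± 0.20 (adjusted p = 0.000144), the Damaraland mole-rat by 1.40 ± 0.15 (adjusted p = 3.60e-07) and guinea pig by 2.18 ± 0.17 (adjusted p = 8.23e-09). A gene higher in the naked mole-rat than in each other species was found for 5.83% of liver genes. Mouse exceeded guinea pig by 1.10 ± 0.21 (adjusted p = 0.000225), and mouse and Damaraland mole-rat differed by 0.33 ± 0.19 (adjusted p = 0.142). The naked mole-rat call against mouse dropped to 0.97 without mouse replicate 1, and the difference of guinea pig from mouse to -0.98 without guinea pig replicate 2 and to -0.995 without mouse replicate 2.

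Markers of fibroblasts and stellate cells did not share this order. Summed over 10 genes they ran from 9579 to 13903 scaled reads in naked mole-rat livers, 6712 to 10112 in Damaraland livers, 11471 to 15885 in guinea pig livers and 6017 to 6321 in mouse livers. Cygb amounted to a median of 2.31% of that sum in naked mole-rat (1.92% to 2.61%), 1.68% in mouse (1.47% to 1.89%), 1.13% in Damaraland mole-rat (0.709% to 1.17%) and 0.229% in guinea pig (0.194% to 0.307%). Relative to these markers the species had the same order for Cygb. The part of fibroblasts and stellate cells in the Cygb values was not tested. Lrat, the enzyme by which stellate cells store vitamin A, was chosen from the list after its values were seen. It averaged 1064 scaled reads in livers of naked mole-rats, 148 in those of Damaraland mole-rats, 756 for guinea pigs and 585 for mice. Of the 10 genes, 2 were called higher and 0 lower in the naked than in the Damaraland mole-rat (34.2% of all genes in either direction). Against guinea pig 2 were higher and 2 lower (37.8%), and against mouse 3 were higher and 2 lower (41.2%).

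Heart gave high Cygb in naked mole-rat and guinea pig alike. Naked mole-rat hearts gave 10.21, 10.30 and 10.21 and guinea pig hearts 9.97, 9.73 and 10.36. Damaraland hearts gave 8.26, 8.70, 8.47, 8.64 and 9.09 and mouse hearts 9.14, 9.54 and 9.01. The naked mole-rat exceeded the Damaraland mole-rat by 1.61 ± 0.19 (adjusted p = 1.90e-06) and mouse by 1.01 ± 0.21 (adjusted p = 0.000567), and guinea pig exceeded the Damaraland mole-rat by 1.38 ± 0.19 (adjusted p = 9.07e-06). The difference from mouse fell under the threshold without naked mole-rat replicate 2 (0.98), mouse replicate 1 (0.97) or mouse replicate 3 (0.90), and with array weights (0.96). Fibroblast markers summed to 46132 to 56509 scaled reads in naked mole-rat, 30252 to 59460 in Damaraland, 60862 to 132115 in guinea pig and 40292 to 47353 in mouse hearts. Relative to them Cygb was 2.08% to 2.39% in naked mole-rat and at most 2.02% in a library of another species. Des, which muscle cells express too, made up 74.0% to 79.4% of the mouse sum and 41.2% to 71.0% of the naked mole-rat sum. Its share was 18.3% to 52.1% in Damaraland and 7.99% to 22.5% in guinea pig hearts. Without Des, a sum chosen after its values were seen, Cygb came to 4.07% to 7.43% in naked mole-rat hearts. It came to 4.53% to 5.39% in mouse hearts, which overlap those, and to 2.61% at most in the other species. The part of fibroblasts in the heart values of Cygb was not tested.

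Counted by comparison in heart, the mole-rats differed in 4 of 9 members (29.4% of all genes were called), with Egln3, Vegfa and Cygb higher and Mb lower in the naked mole-rat. The naked mole-rat differed from guinea pig in 1 (33%), Vegfa, and from mouse in 3 (38.2%), Hif3a, Vhl and Cygb. The Damaraland mole-rat differed from guinea pig in 2 (29.7%), Mb and Cygb, and from mouse in 2 (34.9%), Egln3 and Vhl. Guinea pig differed from mouse in 1 (32.1%), Vhl.

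In liver the mole-rats differed in 3 of 8 members (34.2% of all genes were called), with Egln3 and Cygb higher and Mb lower in the naked mole-rat. The naked mole-rat differed from guinea pig in 3 (37.8%), Epas1, Egln3 and Cygb, and from mouse in 4 (41.2%), Epas1, Egln3, Vhl and Cygb. The Damaraland mole-rat differed from guinea pig in 4 (36.2%), Hif1a, Epas1, Vegfa and Mb, and from mouse in 5 (39.2%), Hif1a, Epas1, Egln3, Vhl and Mb. Guinea pig differed from mouse in 3 (37.2%), Egln3, Vhl and Cygb. Of the 2 HIF alpha genes tested in liver, Epas1 was thus high in both mole-rats and Hif1a in the Damaraland mole-rat.

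The rest of the pathway was described through 3 gene lists in the contrast of the mole-rat mean with the outgroup mean. Regulators of HIF other than the members, 24 genes tested in heart, held 3 that were called higher and 5 that were called lower (10.8% and 12.6% over all genes), with a median difference of -0.12 against -0.01 for all genes. Arnt, the partner of the HIF alpha proteins, was higher by 1.10 ± 0.14 (adjusted p = 2.91e-06), with all mole-rat hearts above all outgroup hearts. Its relative Arnt2 was higher by 1.11 ± 0.15 and Os9, which binds HIF-1 alpha and the hydroxylases, by 1.12 ± 0.14, both with overlapping libraries; with array weights Arnt2 gave 0.95 and was not called. Ube2s, a ubiquitin-conjugating enzyme, was lower (-1.61 ± 0.17, adjusted p = 2.87e-07) and called against both outgroups in both mole-rats, a rule met in heart in either direction by 4.68% of genes.

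Other regulators lower in mole-rat hearts included Ado, an oxygen-dependent thiol dioxygenase, with a difference of -1.47 ± 0.15, and Usp20, a deubiquitinase of HIF-1 alpha, with -1.25 ± 0.21. For Ado the 2 mole-rats and guinea pig had 52.6, 39.4 and 55.8 mean scaled reads and mouse 665, so mouse set the difference. The Usp20 call fell to -0.99 without naked mole-rat replicate 3. Hsp90aa1, a chaperone of HIF-1 alpha, had the largest difference, -3.33 ± 0.15, and was at 0 to 2 reads in each naked mole-rat heart against at least 2862 in each library of the other species. In liver it was at 0 to 4 reads in naked mole-rats and at least 2109 elsewhere, with a difference of -3.89 ± 0.18. A level near 0 in the naked mole-rat alone and a gene model that gathers no reads there cannot be told apart.

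Liver regulators gave 2 higher and 3 lower of 24 (15.1% and 13% of all genes), with a median of 0.23 against 0.02 for all genes. P4htm, a transmembrane prolyl hydroxylase that can act on HIF alpha, was higher by 2.05 ± 0.11 (adjusted p = 5.94e-11) with no overlap. Its mean scaled reads were 116 (naked mole-rat), 276 (Damaraland mole-rat), 66.6 (guinea pig) and 2.40 (mouse). Arnt2 was higher by 2.29 ± 0.12, a difference set by the naked mole-rat (391 mean scaled reads) against the Damaraland mole-rat (10.9), guinea pig (8.11) and mouse (0 reads). Ube2s was lower, with -1.21 ± 0.17, as was Hif1an, the asparaginyl hydroxylase FIH, with -1.18 ± 0.17; mouse held the most Hif1an, with 722 mean scaled reads against 135 to 200.5 elsewhere. No regulator was called in all 4 contrasts with one sign in liver.

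HIF target genes did not move one way. In heart 4 of 39 tested were higher and 6 lower (10.8% and 12.6% of all genes), with a median of -0.22. In liver 6 were higher and 2 lower (15.1% and 13% of all genes), with a median of -0.05. Pfkfb4, a regulator of glycolytic flux, was higher in mole-rat hearts by 1.71 ± 0.19 (adjusted p = 6.96e-07) and Ero1l, an oxidase of disulfide formation, by 1.25 ± 0.11 (adjusted p = 4.59e-08), both in all 4 contrasts and without overlap. P4ha1, a catalytic subunit of collagen prolyl hydroxylase, was lower in both tissues, with -1.90 ± 0.13 in heart (adjusted p = 2.55e-09) and -1.68 ± 0.19 in liver (adjusted p = 4.98e-07), in all 4 contrasts and without overlap in each. Its paralog P4ha2 was higher in heart by 1.28 ± 0.13, also without overlap.

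Of the other targets named in heart, Bhlhe40, a transcriptional repressor of the clock, was higher by 1.02 ± 0.20, close to the size threshold. Mxi1, an antagonist of Myc, was lower (-1.66 ± 0.12), without overlap. Bnip3, a mitophagy receptor, differed by -1.24 ± 0.16 through the naked mole-rat alone, with 328 mean scaled reads there and 2152 to 2376 in the others. Bhlhe41, a relative of Bhlhe40, differed by -1.23 ± 0.16, and mouse, with 511 mean scaled reads, stood over the 19.8 to 72.6 of the other species. The Bhlhe40 call fell to 0.98 or less without naked mole-rat replicates 2 or 3, Damaraland replicate 5 or mouse replicate 1, and to 0.87 and 0.99 without guinea pig replicates 1 and 3; with array weights it was 0.84.

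Ddit4, an inhibitor of mTORC1 that responds to low oxygen and to glucocorticoids, had the largest gain among targets in liver, 2.66 ± 0.26 (adjusted p = 1.17e-07). It was called in all 4 contrasts without overlap, with mean scaled reads of 1067 (naked mole-rat), 1445 (Damaraland mole-rat), 218 (guinea pig) and 108 (mouse). Hmox1, the heme oxygenase, was higher by 1.73 ± 0.18 with overlap, and Pfkfb4 by 1.16 ± 0.15, the latter through the Damaraland mole-rat (218 mean scaled reads against 7.57 to 27.9 in the others); with quantile normalisation Pfkfb4 gave 0.99 and was not called. Gys1, the glycogen synthase of muscle, was higher by 1.62 ± 0.26, with mean scaled reads of 14374 (naked mole-rat), 92.4 (Damaraland mole-rat), 2638 (guinea pig) and 35.9 (mouse). Plin2, a lipid droplet protein, was lower (-1.96 ± 0.13), with 10013 mean scaled reads in mouse and 249 to 488 in the others.

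Among ligands and receptors of the VEGF and angiopoietin system other than Vegfa, 1 of 15 tested in heart was called, where 23.4% of all genes were, and the median difference was -0.43. This was Vegfb, a VEGF family ligand abundant in heart muscle, lower (-1.93 ± 0.13, adjusted p = 2.40e-09), in all 4 contrasts and without overlap. Its mean scaled reads were 559 (naked mole-rat), 1785 (Damaraland mole-rat), 3803 (guinea pig) and 4192 (mouse). The VEGF receptor Kdr had -0.98 in heart and 0.03 in liver, neither called. In liver 1 of 13 was called (28.1% of all genes), Nrp2, a co-receptor, higher by 1.07 ± 0.19 (adjusted p = 8.20e-05) and at 0.97 without guinea pig replicate 3.

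**Figure D5:**
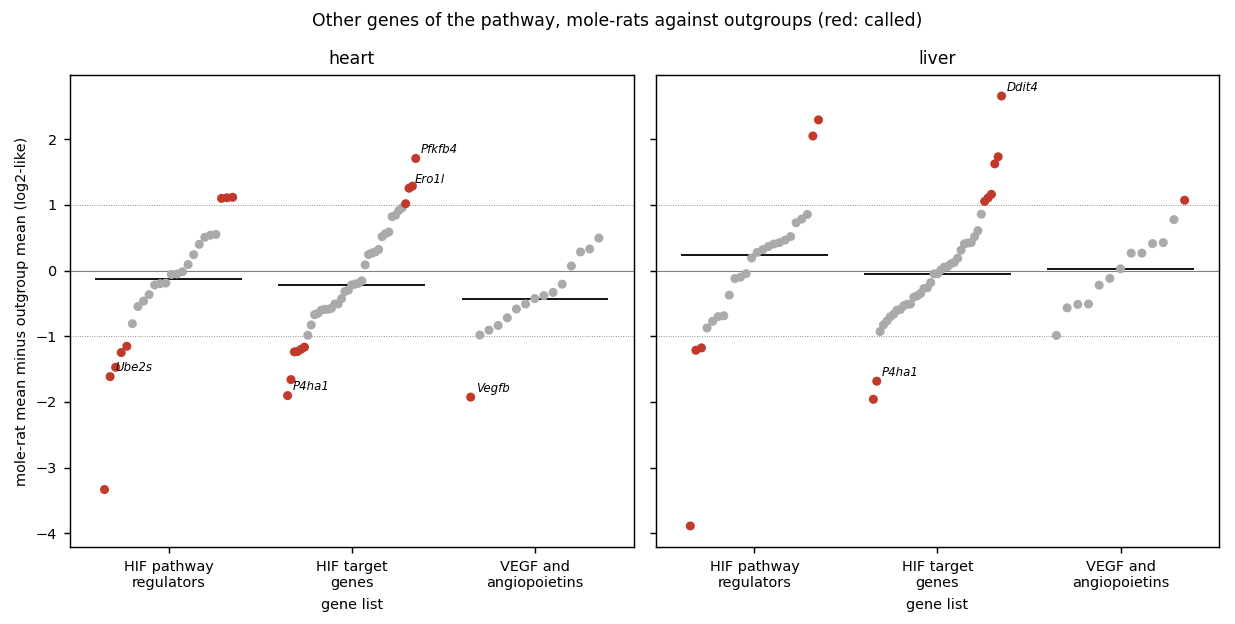
Difference of the mole-rat mean from the outgroup mean (log2-like units) for each gene of 3 lists, sorted within a list, in heart (left) and liver (right); red points were called, black lines are list medians, dotted lines mark a difference of 1, and names mark genes that passed in all 4 mole-rat to outgroup contrasts. Medians lie between -0.43 and 0.23, and called genes lie on both sides of 0 in the regulator and target lists.

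For members with a shift of both mole-rats or of a single species, the genes with the most similar pattern over the 14 libraries of the tissue were listed as a description, since all of them share the species means. For Epas1 in liver they were Ednra (Pearson r = 0.982), Anxa11 (0.975) and Ahi1 (0.967). Egln3 in liver was followed by Hexdc (0.988), Ggt6 (0.984) and Slco2a1 (0.977), and Cygb by Fam129a (0.986), Dnal4 (0.978) and Pde8b (0.975). Vhl was followed in heart by Spata6 (0.973), Rflnb (0.971) and Alox5 (0.964) and in liver by Lman1 (0.954), Rpl41 (0.951) and Mapk1ip1l (0.950). Mb in liver was followed by Psenen (0.924), Cox19 (0.921) and Myh6 (0.921), the last a cardiomyocyte gene.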

How the data were processed

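Ribosomal-RNA-depleted total RNA of 14 heart and 14 liver libraries was quantified by the authors; cutadapt, Salmon 013.1, DESeq2 and the build GRCm38 are named per the submitters' processing notes, with no role given. The authors deposited, for each tissue, variance-stabilised log2-like values of 13928 genes, transformed separately; 13921 rows were matched to a symbol, and 26 columns that belong to other series were not used. Inverting the transform gave whole reads for 100% of values (tolerance 0.01), and these supplied depths, scaled reads and an additional test. Genes with a mean of at least the value of 0 reads plus 1 were tested (10667 in heart, 10887 in liver) with limma 3.58.1 in R 4.3.3, as a model of species means whose variances were moderated along a trend, with p-values adjusted by Benjamini-Hochberg over all genes. The script was tested on simulated data.

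The members and gene lists were chosen with earlier results of these data known. Named genes were the members, list genes that passed in all 4 mole-rat to outgroup contrasts, of the other called list genes the 3 largest in each direction, and, for members shifted in both mole-rats or in a single species, the 3 genes of highest correlation; Kdr and Lrat were chosen after their values were seen. Groups follow the labels, and labels name the animals, so replicates are animals. Alternatives were median centring, quantile normalisation, no filter, a filter at the table median, no size threshold, a test against a difference of 1, no variance trend, a robust variance model, array weights, a replicate block, voom on the recovered reads and leaving out each library; marker sums without Ttn and without Des were added after seeing the data. No label pairs the libraries of different species by replicate number. Same-numbered libraries deviated together with r over 0.1 in 2 of 18 pairs in heart and 5 of 16 in liver. Differently numbered libraries did so in 9 of 54 pairs in heart and 10 of 55 in liver. The median r of same-numbered pairs was -0.018 in heart and 0.026 in liver.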

Additional observations from a re-analysis of the deposited data

Results flagged for a closer look

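Sets of 4 or 5 libraries of a species and tissue were examined, a set for each member. Of 27 such sets, 5 held a library far from the rest of its group. Chance gives about 1 in 20 for independent sets, but these sets share libraries. The share of all genes with such a library is not given here, so the count does not set the members apart. All 5 were Damaraland libraries, but the sets came only from Damaraland heart, Damaraland liver and naked mole-rat liver. Naked mole-rat heart and all guinea pig and mouse groups, with 2 or 3 libraries each, were not examined. The 5 libraries therefore do not compare Damaraland mole-rats with guinea pigs or mice. Hif3a in heart replicate 4 was 8.06, against 6.12 to 6.58 in the other hearts. Hif3a in liver replicate 5 was 6.10 (4.88 to 5.21 in the others), and Vegfa in the same library was 10.29 (8.86 to 9.10). The heart of that animal, replicate 3, had the lowest Hif3a of its group, 6.12. Hif1a in liver replicate 4, from the only female, was 10.71 (10.95 to 11.01), and Cygb in liver replicate 3 was 6.42 (6.84 to 6.92).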

How the results depend on the processing

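Of 63 member contrasts in heart 13 were called, and 2 kept the call under every alternative in which they were tested; in liver 12 of 23 calls out of 56 did. Of these, 1 in heart and 9 in liver were not tested under some alternative, so 1 and 3 were tested and kept in all. None reversed. Leaving out the test against a difference of 1, 6 calls in heart and 2 in liver were lost at least once. The cause was not tested where a count moved, except that the filter at the table median tests fewer genes.

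With no size threshold the member counts in heart became 4 (mole-rats against outgroups), 4 (naked mole-rat against guinea pig), 5 (Damaraland mole-rat against guinea pig), 4 (Damaraland mole-rat against mouse) and 5 (guinea pig against mouse), and the lists held 15 regulators, 28 targets and 8 VEGF genes; in liver they became 7 (mole-rats against outgroups) and 6 (naked against Damaraland mole-rat), with 18, 25 and 7 list genes. Tested against a difference of 1, heart counts were 1 for the mole-rats, 0 and 1 for the naked mole-rat against guinea pig and mouse, 0 for the other contrasts, and 3 regulators and 3 targets; in liver they were 2 (naked mole-rat against mouse), 1 each for the Damaraland mole-rat against guinea pig and mouse and for guinea pig against mouse, 3 regulators, 4 targets and 0 VEGF genes. Above the table median, 1 (naked mole-rat against mouse), 1 (Damaraland mole-rat against mouse) and 0 (guinea pig against mouse) were called in heart, and 0, 1, 1, 2 and 0 in liver for the mole-rats, naked mole-rat against guinea pig and mouse, Damaraland mole-rat against mouse, and guinea pig against mouse, with 2 regulators. Voom gave 2 for mole-rats against outgroups, 2 for guinea pig against mouse and 4 VEGF genes in heart, and 3 and 3 VEGF genes in liver. Array weights gave 0 (naked mole-rat against guinea pig), 1 (Damaraland mole-rat against mouse) and 3 VEGF genes in heart and 2 VEGF genes in liver. Median centring gave 0 and quantile normalisation 1 for Damaraland mole-rat against mouse in heart, the latter Mb in place of Egln3 and Vhl. In liver quantile normalisation gave 2 for mole-rats against outgroups and 2 VEGF genes.

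The replicate number was also used as a block, although no label pairs the libraries of different species by it. Members called between Damaraland mole-rat and mouse in heart then went from 2 to 0. No other count of members or lists moved by over 1.5 times.

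Leaving out each library in turn gave these ranges in heart: 0 to 0 for mole-rats against outgroups, 3 to 4 for the mole-rats, 0 to 2 and 2 to 4 for the naked mole-rat against guinea pig and mouse, 2 to 2 and 0 to 2 for the Damaraland mole-rat against them, and 1 to 1 for guinea pig against mouse, with 7 to 8 regulators, 9 to 11 targets and 1 to 3 VEGF genes. In liver the ranges, in that sequence, were 1 to 2, 3 to 5, 3 to 3, 3 to 4, 4 to 4, 5 to 5 and 2 to 4 for members, and 5 to 6, 7 to 8 and 0 to 2 for the lists. In heart the 0 came without mouse replicate 1 (Damaraland mole-rat against mouse) and without guinea pig replicate 1 or 2 (naked mole-rat against guinea pig), and the 3 VEGF genes without naked mole-rat replicate 3; in liver the 5 came without naked mole-rat replicate 2 and the 0 VEGF genes without guinea pig replicate 3. Mouse liver with 1 library left was assumed to vary like the other groups. Depth limits Hif3a in liver and in mouse and Damaraland heart, Egln3 in Damaraland and guinea pig liver, Mb in naked mole-rat liver (replicate 1, 18 reads) and guinea pig liver (replicate 2, 12 reads) and Vhl in naked mole-rat heart, each with libraries under 20 reads, where the deposited scale compresses differences.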
